A study of Homo sapiens with 21 samples.

Results

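Genes that encode the machinery of DNA replication, from the proteins that mark and license origins to the polymerases, clamp and ligase that work at the fork, were followed in the RNA-seq libraries of H1975 cells. The 46 members were chosen by gene symbol, and all 46 had a row among the 34021 genes of the deposited table. They fall into 10 roles: the origin recognition complex (6 genes), licensing factors and their inhibitor (3), the MCM2 to MCM7 helicase core (6), helicase activation (8), polymerase alpha and primase (4), polymerases delta and epsilon (5), the sliding clamp and its loader (6), Okazaki fragment maturation (2), the single-strand binding protein RPA (3) and fork protection (3).

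H1975 is an established line of human lung adenocarcinoma with mutated EGFR, the gene of the epidermal growth factor receptor. The series labels it as non-small cell lung cancer (NSCLC). It was grown for 8 days in 3 groups of 3 libraries. DMSO+EV received the solvent DMSO, with WT as the genotype label. OL+EV, also WT, received 500 nM osimertinib, which binds mutant EGFR covalently and blocks it, with 500 nM linsitinib, an inhibitor of the IGF1R and insulin receptor kinases. OC received 500 nM osimertinib and overexpressed cIGF1R, a circular RNA of the IGF1R gene. The labels do not spell out EV, and only the DMSO+EV and OL+EV labels carry it. Because osimertinib with EV but without linsitinib is not among the groups used, every OC value joins the drug and the circular RNA. In OC against OL+EV, the lack of linsitinib and the circular RNA cannot be told apart. The other 12 samples of the series hold circular RNA data and were not used here. Nothing in the labels tells whether replicate libraries stem from separate cultures, and p-values therefore reflect only the scatter of these libraries, which may be technical. Per the labels, dying cells were washed off and the remaining cells used.

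Replication origins are bound by the origin recognition complex, on which CDC6 and CDT1 load the ring-shaped MCM2 to MCM7 helicase before S phase, while geminin (GMNN) keeps CDT1 from loading it again. The kinase CDC7 with DBF4, together with CDC45, the GINS proteins and MCM10, then turns the loaded ring into an active helicase, and primase, polymerases, clamp and ligase copy the parted strands. Many of these genes are textbook targets of E2F transcription factors, which the retinoblastoma protein holds back until growth signals drive the cell out of G1.

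The values have no named unit and are read as FPKM, a fragment count scaled to gene length and library size, with totals of 338034 to 474156 per library and an unknown read depth. Pearson's r of log2 values across the 13775 genes tested, which are not independent replicates, was 0.986 to 0.994 within groups and 0.817 to 0.929 between them. Transcripts of mitochondrial DNA held 18.3% to 27.6% of the total in DMSO+EV, 18.7% to 23.3% in OL+EV and 5.28% to 6.41% in OC. DMSO+EV replicate 1, with the highest of these shares, had the lowest DMSO+EV value for 30 of the 46 members. Epithelial markers were abundant in every group, with KRT8 between 4015 and 6480 FPKM, whereas the lung lineage factor NKX2-1 stayed at or below 0.169 and the surfactant gene SFTPB at or below 0.0813. Of markers of other cell types, summed levels were 3.35 to 6.1 FPKM for fibroblasts (5 of 7 listed genes in the table), 1.84 to 4.44 for leukocytes (6 of 6) and 0.171 to 4.12 for endothelium (4 of 5). The fibroblast sum was 3.38 to 3.75 in DMSO+EV, 3.35 to 3.71 in OL+EV and 5.6 to 6.1 in OC. Most of it was COL1A1, which was higher in OC than in DMSO+EV (limma adjusted p = 9.94e-05) and in OL+EV (limma adjusted p = 5.31e-05). PTPRC, the leukocyte surface phosphatase, did not exceed 0.0352 FPKM, but 2 other genes of the leukocyte list were higher. CD14 held 1.27 to 1.96 FPKM in DMSO+EV, 0.925 to 2.14 in OL+EV and 2.11 to 3.99 in OC. It was higher in OC than in DMSO+EV (limma adjusted p = 0.0153). ITGAM held 1.05 to 1.31 in OL+EV, above DMSO+EV (limma adjusted p = 2.6e-05), and at most 0.412 in DMSO+EV and 0.315 in OC. The endothelial sum was 3.55 to 4.12 in DMSO+EV and lower in OL+EV (0.171 to 0.24) and OC (0.783 to 0.972). CDH5, an endothelial cadherin, made up 3.18 to 3.68 of it in DMSO+EV. The part of these sums in the results on replication genes was not tested. The labels leave unsettled if RNase R, an enzyme that degrades linear RNA, was applied to these 9 libraries.

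Most of the replication machinery was lower under both osimertinib treatments. In OL+EV, 41 of 46 members were called, against 52.6% of all tested genes, and all 41 were lower than in DMSO+EV (limma, Benjamini-Hochberg adjusted p under 0.05, with 0 members higher at an unadjusted p under 0.05), where 23.5% of all tested genes were lower and 29.0% higher. In OC, 42 of 46 were called, against 69.0% of all tested genes: 40 were lower, against 35.8%, and 2 higher, against 33.1%. The libraries of the groups lay apart without overlap for 42 members in OL+EV, all lower (27.6% of all tested genes), and for 40 lower and 2 higher in OC (36.5% and 33.3%). The median member kept 25.6% of its DMSO+EV mean in OL+EV and 30.9% in OC. In OL+EV 23 members stood under 25% of the DMSO+EV mean, 15 between 25% and 50% and 8 above that. In OC the numbers were 19 and 13, with 10 between 50% and 100% and 4 at or above the DMSO+EV mean. In bulk RNA, fewer cells in S phase and less of each message per cell cannot be told apart.

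On the log2(FPKM + 1) scale, the median log2 fold change of the members was -1.54 in OL+EV and -1.45 in OC, against 0.053 and -0.025 over all tested genes. A fall of at least 1 on that scale was called for 36 members in OL+EV (5.54% of all tested genes) and 29 in OC (11.4%), and a rise of that size for 0 members in either (3.65% and 10.4%). These fitted changes understate those of low genes: a pseudocount of 0.1 gave medians of -1.9 and -1.65, and one of 5 gave -0.823 and -0.773. The filter asks for 1 FPKM in at least 3 libraries, and 10 members (ORC1, CDC6, CDC45, GINS2, GINS4, MCM10, DBF4, POLE2, RFC3 and WDHD1) passed it through DMSO+EV, so they had to differ. The member medians, the shares of the DMSO+EV mean, and the counts of non-overlap and of falls of at least 1 include these 10. Of the other 36, 31 were lower in OL+EV, and 30 were lower and 2 higher in OC.

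**Figure D1:**
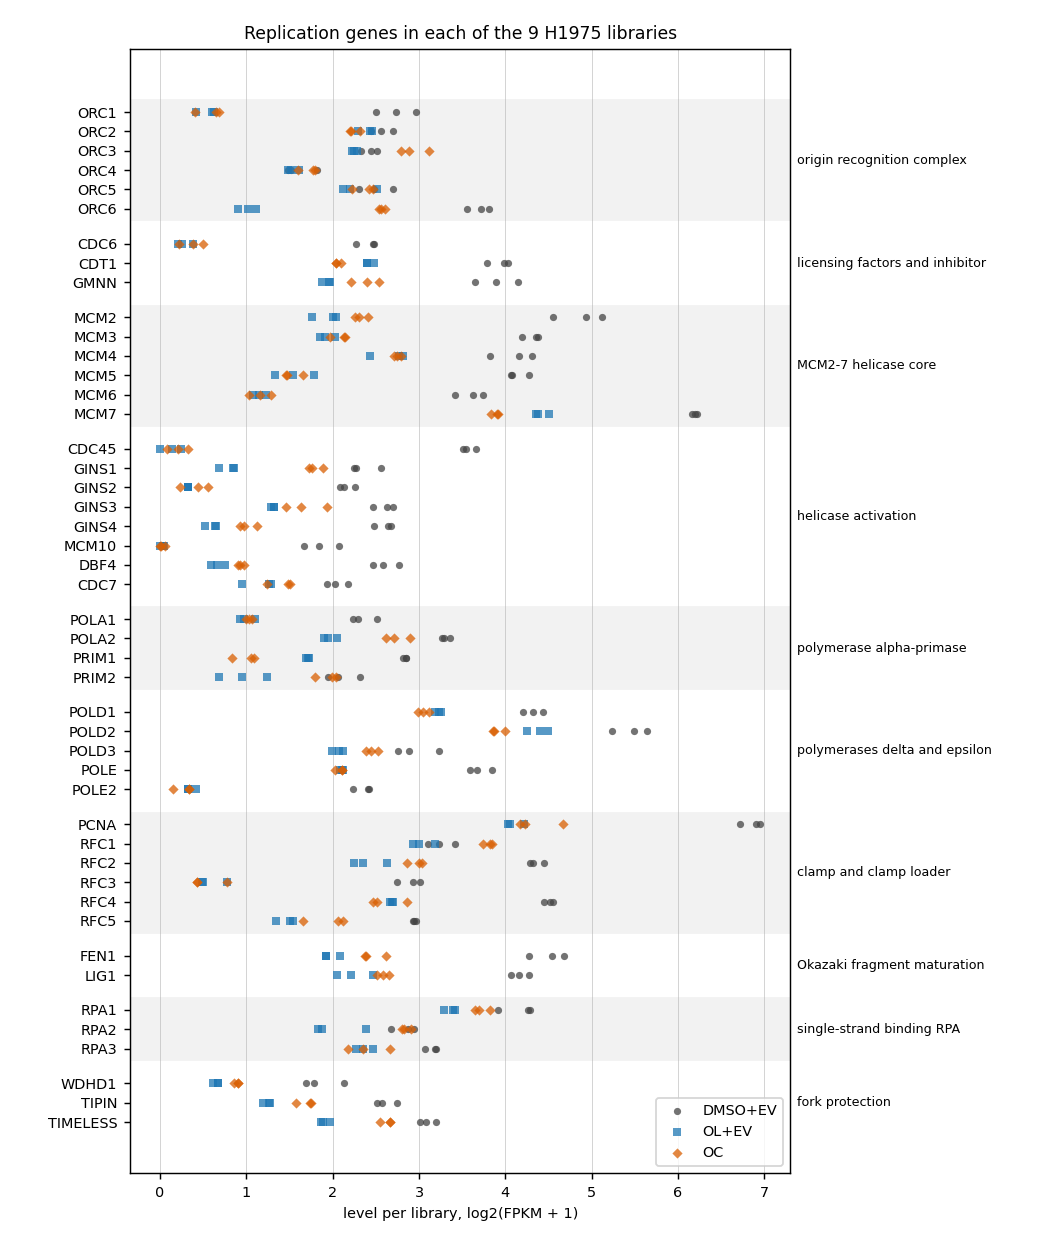
Level of each of the 46 replication genes (rows, grouped by role) in every library, as log2(FPKM + 1) on the horizontal axis. Grey circles are DMSO+EV, blue squares OL+EV and orange diamonds OC, 3 libraries each. Most rows show DMSO+EV to the right of both treated groups, while ORC2 to ORC5, RFC1, PRIM2 and RPA2 do not.

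The promoters of members that fell and of members that did not were set side by side, because E2F sites are the best known shared feature of this gene set. RefSeq windows of GRCh38.p14, from 250 bases before the start of a gene to 50 after it, were matched for 40 of the 46 members. MCM4, MCM5, GINS4, POLD3, RPA2 and RPA3 had no entry. The E2F letters searched were TTTCCCGC, TTTCGCGC, TTTGCCGC and TTTGGCGC, on both strands, where overlapping matches such as those in MCM6 share bases. They were present in 20 of the 40 members (50%) and in 3.99% of all 27305 genes with a window. All 4 MCM helicase genes with an entry (MCM2, MCM3, MCM6, MCM7) and all 3 licensing genes held a match, against 1 of 6 origin recognition genes. Of members lower in OL+EV, 19 of 35 held one, and of the 5 that were not called there, 1 did (ORC3). The CCAAT box, searched as CCAAT on both strands, was in 23 of the 40 members (57.5%) and in 39.7% of all genes. A match describes letters only.

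The 200 bases before the start of 6 genes are printed below, 5′ to 3′ on the strand of the gene, with E2F letters in capitals. MCM6 (chr2:135876444-135876643, minus strand) and PCNA (chr20:5126623-5126822, minus strand) are examples of genes that fell steeply in both treated groups and held a match. Other steep falls came without one: CDC45, with the largest fitted fall of all members, held no E2F match. MCM10, ORC1, FEN1 and DBF4 held none either. RFC3 (chr13:33817949-33818148, plus strand) and RFC1 (chr4:39366363-39366562, minus strand) are subunits of the same clamp loader that moved apart. ORC3 (chr6:87589935-87590134, plus strand) and ORC6 (chr16:46689459-46689658, plus strand) do the same for the origin recognition complex.
MCM6: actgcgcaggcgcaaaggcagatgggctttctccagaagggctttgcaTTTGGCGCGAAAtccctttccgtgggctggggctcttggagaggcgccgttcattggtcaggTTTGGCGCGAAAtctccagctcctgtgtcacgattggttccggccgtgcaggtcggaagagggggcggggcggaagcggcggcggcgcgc
PCNA: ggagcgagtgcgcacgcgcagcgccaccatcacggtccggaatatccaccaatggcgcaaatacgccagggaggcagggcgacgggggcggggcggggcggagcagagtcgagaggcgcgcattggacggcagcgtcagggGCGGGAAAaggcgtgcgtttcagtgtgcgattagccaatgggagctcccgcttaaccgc
RFC3: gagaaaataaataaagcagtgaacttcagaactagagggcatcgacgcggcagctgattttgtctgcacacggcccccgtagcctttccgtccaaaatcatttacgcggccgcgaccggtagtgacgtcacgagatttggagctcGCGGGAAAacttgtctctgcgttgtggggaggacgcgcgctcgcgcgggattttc
RFC1: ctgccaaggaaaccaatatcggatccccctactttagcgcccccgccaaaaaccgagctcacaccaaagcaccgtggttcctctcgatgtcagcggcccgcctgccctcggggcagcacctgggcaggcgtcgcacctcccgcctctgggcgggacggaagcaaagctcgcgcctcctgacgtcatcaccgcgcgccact
ORC3: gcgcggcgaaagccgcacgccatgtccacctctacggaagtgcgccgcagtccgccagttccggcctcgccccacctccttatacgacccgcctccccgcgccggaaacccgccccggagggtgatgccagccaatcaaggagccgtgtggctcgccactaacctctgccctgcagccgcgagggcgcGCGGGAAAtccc
ORC6: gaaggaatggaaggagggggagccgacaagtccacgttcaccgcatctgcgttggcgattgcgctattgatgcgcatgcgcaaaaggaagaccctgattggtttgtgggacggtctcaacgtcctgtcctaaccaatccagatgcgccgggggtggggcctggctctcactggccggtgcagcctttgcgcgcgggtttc
MCM6 carries 4 matches in a pair of overlapping blocks that begin 152 and 90 bases before the start. PCNA and RFC3 carry 1 each, 59 and 55 bases before it. ORC3, which did not fall, has 1 match 12 bases before its start, while ORC6, which fell, and RFC1, which did not, have none in the whole window.

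The origin recognition complex split by subunit. ORC1, the ATPase subunit whose level follows the cell cycle, and ORC6, the smallest subunit, fell in both treated groups, while ORC2, ORC3, ORC4 and ORC5 stayed near their DMSO+EV levels in OL+EV. ORC1 stood at 4.68, 5.67 and 6.79 FPKM in DMSO+EV, at 0.544, 0.334 and 0.518 in OL+EV and at 0.329, 0.571 and 0.609 in OC. All 6 treated libraries lay below every DMSO+EV library, at 8.14% (OL+EV) and 8.8% (OC) of the control mean. The log2 fold changes were -2.19 (SE 0.13, limma adjusted p = 1.38e-08) and -2.15 (SE 0.13, limma adjusted p = 5.81e-09). ORC1 passed the filter through DMSO+EV and so had to differ, and these p-values are no separate evidence.

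ORC6 took 3 separate levels. It held 13.0, 10.8 and 12.2 FPKM in DMSO+EV, 1.16, 0.867 and 1.03 in OL+EV and 5.07, 4.8 and 4.91 in OC. The groups did not overlap, and OC stood between the other groups at 41.1% of the control mean, against 8.51% in OL+EV. The direct comparison of OC with OL+EV gave a ratio of 4.83 and a log2 fold change of 1.56 (SE 0.098, limma adjusted p = 2.58e-08), which ran from 0.722 with a pseudocount of 5 to 2.17 with 0.1. It was the largest difference of any member between these groups.

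ORC3 went the other way from ORC1 in OC. Its levels were 4.03, 4.72 and 4.46 FPKM in DMSO+EV, 3.66, 3.74 and 3.87 in OL+EV and 5.92, 6.37 and 7.64 in OC. Each OC library lay above each DMSO+EV library, with a mean of 151% of control (log2 fold change 0.5, SE 0.1, limma adjusted p = 0.000749), and the rise was called in every alternative tried except under a required log2 fold change of 1. The OL+EV libraries lay below the DMSO+EV ones without passing the test (limma adjusted p = 0.153). ORC2 held 4.88, 4.44 and 5.48 FPKM in DMSO+EV, 4.49, 3.92 and 4.38 in OL+EV and 3.62, 3.99 and 3.61 in OC, and fell in OC alone among the tests against control (log2 fold change -0.32, limma adjusted p = 0.0101). ORC4 was the least abundant member in DMSO+EV at 2.06 ± 0.397 FPKM (SD, n = 3), with 1.91 ± 0.132 in OL+EV and 2.29 ± 0.241 in OC (limma adjusted p = 0.636 and 0.39). ORC5 stood at 4.67 ± 0.775, 3.88 ± 0.729 and 4.18 ± 0.443 FPKM in the same order (limma adjusted p = 0.175 and 0.403). Libraries of different groups overlapped for both genes.

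**Figure D2:**
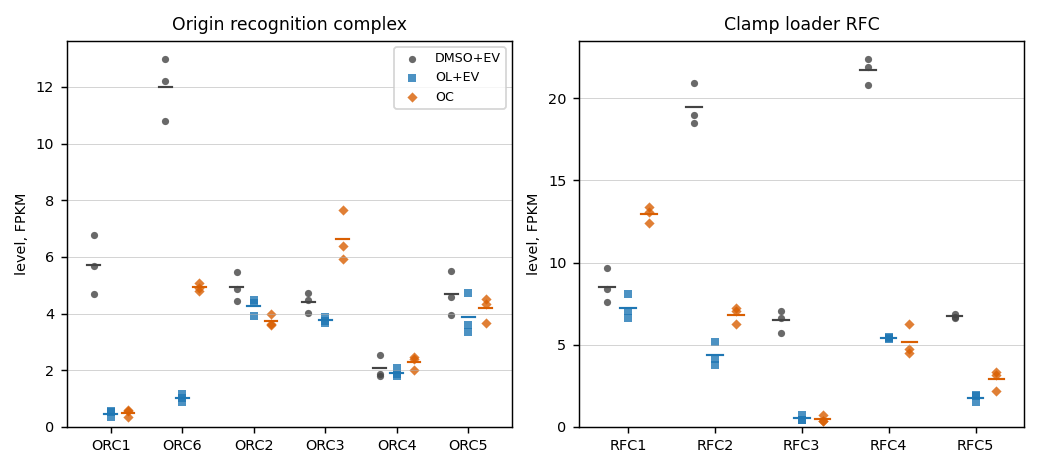
FPKM (vertical axis) of the origin recognition subunits (left) and of the clamp loader subunits (right) in each library, with short lines at the group means. ORC1 and RFC3 drop to below 1 FPKM in both treated groups, whereas ORC3 and RFC1 are highest in OC.

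The licensing factors fell together with their inhibitor. CDC6, the ATPase that joins the origin recognition complex to load the helicase, was nearly lost: it stood at 3.82, 4.53 and 4.56 FPKM in DMSO+EV, at 0.155, 0.193 and 0.298 in OL+EV and at 0.163, 0.303 and 0.408 in OC. The treated groups kept 5.0% and 6.78% of the control level and overlapped each other. CDC6 passed the filter through DMSO+EV and so had to differ from it. CDT1, the helicase loader, fell less, from 14.8, 15.4 and 12.8 FPKM to 4.29, 4.27 and 4.56 in OL+EV and 3.11, 3.1 and 3.29 in OC. CDT1 was lower in OC than in OL+EV in every library (log2 fold change -0.37, SE 0.093, limma adjusted p = 0.00402). GMNN, geminin, showed the opposite order of the treated groups, with 11.5, 13.8 and 16.7 FPKM in DMSO+EV, 2.67, 2.89 and 2.93 in OL+EV and 4.25, 3.62 and 4.78 in OC (OC against OL+EV: log2 fold change 0.44, SE 0.13, limma adjusted p = 0.00872). Within a library, the ratio of GMNN to CDT1 was 0.777 to 1.3 in DMSO+EV, 0.623 to 0.677 in OL+EV and 1.17 to 1.45 in OC. The OC and OL+EV ratios did not overlap. This ratio and the other ratios of partner genes given here were chosen after the values were seen and were not tested.

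All 6 genes of the helicase core fell in both groups, with median log2 fold changes of -2.41 in OL+EV and -2.37 in OC, the lowest medians of any role of more than 2 genes. MCM2 had the largest fall of the ring in OL+EV, from 22.4, 33.8 and 29.5 FPKM to 3.01, 3.1 and 2.38, with 3.96, 3.79 and 4.32 in OC. It kept 9.9% and 14.1% of the control mean (log2 fold changes -2.94, SE 0.13, and -2.54, SE 0.13; limma adjusted p = 1.21e-09 and 1.7e-09). MCM5 and MCM6 kept between 11.0% and 11.8% in both groups, and MCM3 14.9% in OL+EV and 17.3% in OC. MCM4 fell least, to 33.2% and 35.0%, from 13.2, 16.9 and 18.8 FPKM to 6.03, 5.81 and 4.4 in OL+EV and 5.72, 5.9 and 5.53 in OC.

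MCM7 differed from its partners in level and in order. Its FPKM, a value per length, was 72.1 ± 1.36 in DMSO+EV (SD, n = 3) against 11.1 ± 1.38 for MCM6, the lowest of the ring. The libraries held 70.6, 73.3 and 72.4 FPKM in DMSO+EV, 19.5, 19.8 and 21.7 in OL+EV and 13.3, 14.1 and 14.0 in OC. OC lay below OL+EV without overlap (log2 fold change -0.53, SE 0.083, limma adjusted p = 0.000118), while MCM2 was higher in OC (0.4, limma adjusted p = 0.0211) and the other 4 were not called. The call for MCM2 was lost without the filter (limma adjusted p = 0.0853), with a pseudocount of 5 (0.0978) and without OL+EV replicate 3 (0.0935) or OC replicate 3 (0.0669). The MCM7 gene also holds the microRNA genes MIR25, MIR93 and MIR106B and overlaps AP4M1 in the RefSeq annotation, and how shared reads were counted is not stated in the labels.

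The 8 helicase activation genes all fell, and 2 of them nearly vanished. CDC45, a core part of the active helicase, stood at 10.7, 10.4 and 11.6 FPKM in DMSO+EV, was listed at 0, 0.179 and 0.104 in OL+EV and stood at 0.0564, 0.151 and 0.249 in OC. MCM10, which helps start unwinding, held 2.19, 2.57 and 3.2 FPKM in DMSO+EV, 0, 0.0296 and 0.0216 in OL+EV and 0.0373, 0 and 0.0117 in OC. Every treated library lay far below every DMSO+EV library for both genes, and the CDC45 and MCM10 values of the treated groups overlapped. Both genes, like GINS2, GINS4 and DBF4 of this role, passed the filter through DMSO+EV and so had to differ from it. The p-values of such genes against DMSO+EV are no separate evidence. CDC45 had the largest fitted fall of all members in both comparisons, at -3.44 and -3.37 (SE 0.1 each, limma adjusted p = 2.65e-11 and 8.1e-12).

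The 4 GINS genes, whose products form 1 tetramer, fell to different extents. GINS2 held 3.25, 3.38 and 3.78 FPKM in DMSO+EV, 0.251, 0.253 and 0.255 in OL+EV and 0.36, 0.176 and 0.473 in OC. GINS1 held 3.82, 3.75 and 4.89, then 0.611, 0.793 and 0.815, then 2.3, 2.38 and 2.71. GINS1 thus kept 17.8% of control in OL+EV and 59.2% in OC, and OC exceeded OL+EV by 0.99 on the log2 scale (SE 0.11, limma adjusted p = 5.84e-06). GINS3 and GINS4 were also higher in OC than in OL+EV, by 0.37 and 0.4 (limma adjusted p = 0.0189 and 0.00354), whereas GINS2 was not called (limma adjusted p = 0.494). The GINS3 call was lost without the filter (limma adjusted p = 0.0627), without OL+EV replicate 2 (0.0545) and without OC replicate 3 (0.0716). DBF4, the activating partner of CDC7, fell to 11.5% in OL+EV and 17.9% in OC. In OL+EV the kinase CDC7 itself fell least of this role. It went from 3.54, 2.83 and 3.07 FPKM to 1.39, 0.932 and 1.44 in OL+EV and 1.37, 1.83 and 1.8 in OC, or 39.8% and 52.9% of control. In OC, GINS1 fell least.

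**Figure D3:**
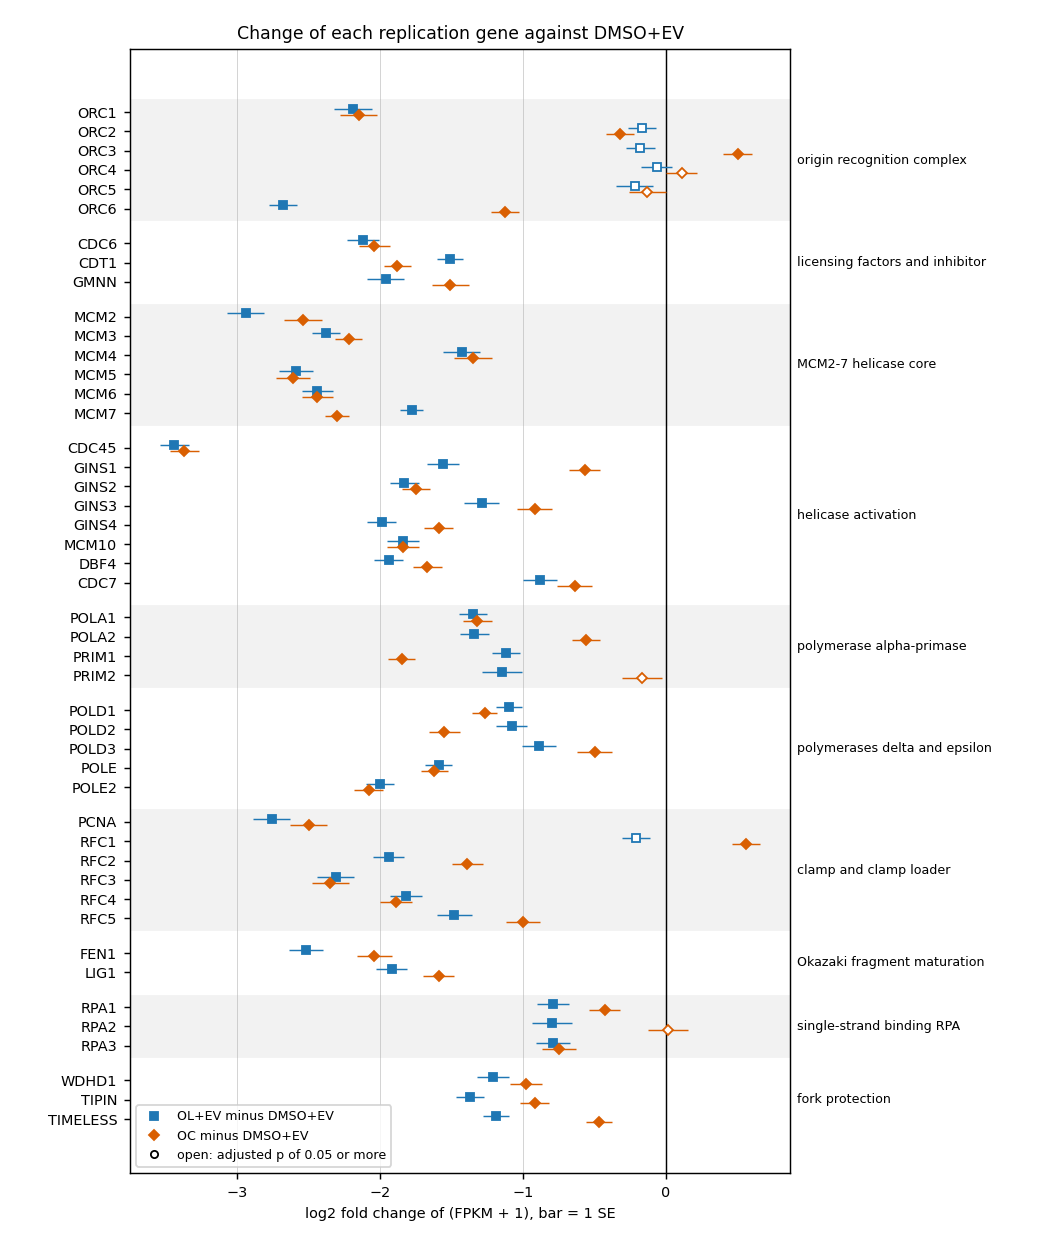
Log2 fold change of (FPKM + 1) against DMSO+EV for each member in OL+EV (blue squares) and OC (orange diamonds), with bars of 1 SE and open symbols where the adjusted p was 0.05 or more. CDC45 lies farthest left at -3.44 and -3.37, and ORC3 and RFC1 are to the right of 0 in OC.

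Polymerase alpha and primase lay the first stretch of each new strand, and their 4 genes did not move together between the treated groups. Against OL+EV, POLA2 and PRIM2 were higher in OC, PRIM1 was lower and POLA1 was not called (limma adjusted p = 0.818). In OL+EV all 4 fell by similar amounts, with log2 fold changes of -1.12 to -1.35. In OC the catalytic primase subunit PRIM1 fell furthest and its large partner PRIM2 did not pass the test. PRIM1 stood at 6.01, 6.18 and 6.22 FPKM in DMSO+EV, at 2.32, 2.28 and 2.24 in OL+EV and at 0.788, 1.12 and 1.07 in OC. PRIM2 stood at 2.86, 3.16 and 3.99, then at 1.36, 0.929 and 0.606, then at 3.11, 2.97 and 2.47. So PRIM1 in OC was 0.435 times its OL+EV mean (log2 fold change -0.72, SE 0.095, limma adjusted p = 2.65e-05), and PRIM2 was 2.95 times its own (0.98, SE 0.14, limma adjusted p = 6.45e-05). The PRIM2 value in OC was 85.4% of control, with overlapping libraries (limma adjusted p = 0.314).

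The ratio of PRIM2 to PRIM1 within a library was 0.476, 0.51 and 0.641 in DMSO+EV, 0.589, 0.408 and 0.271 in OL+EV and 3.94, 2.66 and 2.32 in OC. Every OC library lay above 1 and every other library below it. RefSeq lists a pseudogene copy, PRIM2BP, so PRIM2 counts are uncertain where reads fit both. POLA1, the catalytic polymerase subunit, kept 24.4% and 25.4% of control. POLA2, its accessory subunit, held 8.78, 9.26 and 8.59 FPKM in DMSO+EV, 3.13, 2.72 and 2.86 in OL+EV and 6.46, 5.13 and 5.53 in OC, with OC 0.78 above OL+EV on the log2 scale (SE 0.098, limma adjusted p = 1.89e-05). The 3 groups did not overlap for POLA2.

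The genes of polymerases delta and epsilon, which extend the lagging and leading strands, fell in both groups, 5 of 5 in each. POLE2, an accessory subunit of epsilon, fell most, from 3.69, 4.31 and 4.36 FPKM to 0.247, 0.256 and 0.33 in OL+EV and 0.261, 0.264 and 0.111 in OC. POLE2 passed the filter through DMSO+EV and so had to differ from it. Its catalytic partner POLE kept 27.5% and 26.8% of control. POLD3 of polymerase delta fell least in OL+EV, from 5.78, 6.36 and 8.36 to 3.36, 3.21 and 2.99, and stood at 4.77, 4.43 and 4.23 in OC. POLD2, another delta subunit and the third most abundant member in DMSO+EV, held 36.7, 48.8 and 44.1 FPKM there, 21.6, 20.1 and 18.0 in OL+EV and 13.5, 13.6 and 14.9 in OC. Between the treated groups these partners moved in opposite directions: OC was higher for POLD3 (0.39, SE 0.12, limma adjusted p = 0.0117) and lower for POLD2 (-0.47, SE 0.11, limma adjusted p = 0.00241), and the catalytic POLD1 was not called (-0.17, limma adjusted p = 0.109). The POLD2 to POLD3 ratio was 5.28 to 7.67 in DMSO+EV, 6.02 to 6.41 in OL+EV and 2.83 to 3.53 in OC.

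PCNA, the ring that holds polymerases on DNA, was the most abundant member in DMSO+EV and fell about as far as the helicase. It stood at 104, 123 and 119 FPKM in DMSO+EV, at 15.6, 17.6 and 15.4 in OL+EV and at 17.0, 17.8 and 24.5 in OC. It kept 14.0% and 17.1% of control (log2 fold changes -2.76, SE 0.13, and -2.5, SE 0.13; limma adjusted p = 1.43e-09 and 1.29e-09), and the treated groups overlapped. RefSeq lists 4 PCNA pseudogenes.

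The clamp loader, RFC, places that ring on DNA, and its large subunit RFC1 parted from the 4 small ones. RFC2, RFC3, RFC4 and RFC5 fell in both groups. RFC3 went from 5.71, 6.65 and 7.06 FPKM to 0.4, 0.707 and 0.415 in OL+EV and 0.347, 0.713 and 0.349 in OC, which is 7.84% and 7.25% of control. RFC3 passed the filter through DMSO+EV and so had to differ from it. RFC1 held 7.59, 8.37 and 9.64 FPKM in DMSO+EV, 8.11, 7.03 and 6.6 in OL+EV and 13.1, 13.4 and 12.4 in OC. In OL+EV the libraries overlapped those of control (log2 fold change -0.21, limma adjusted p = 0.11), and the fall passed the test only under median-of-ratios rescaling (limma adjusted p = 0.0336) and without DMSO+EV replicate 1 (0.0438) among the alternatives tried. In OC each library lay above each control library, at 152% of the mean (log2 fold change 0.56, SE 0.1, limma adjusted p = 0.000316). That rise was called in every alternative that set no minimum fold. RFC1 and ORC3 were the members called higher than control in OC.

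The small RFC subunits also differed between the treated groups. RFC2 and RFC5 were higher in OC than in OL+EV (0.56 and 0.48, limma adjusted p = 0.000689 and 0.00409), and RFC3 and RFC4 were not called (limma adjusted p = 0.802 and 0.606). RFC1 exceeded its OL+EV level by 0.77 (SE 0.1, limma adjusted p = 3.39e-05). The ratio of RFC1 to RFC3 was 1.26 to 1.37 in DMSO+EV, 9.94 to 20.3 in OL+EV and 18.8 to 37.8 in OC.

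Okazaki fragments are trimmed by the flap nuclease FEN1 and joined by DNA ligase 1, LIG1, and both genes fell. FEN1 went from 18.3, 22.2 and 24.6 FPKM to 3.24, 2.8 and 2.79 in OL+EV and 4.21, 4.18 and 5.15 in OC. LIG1 went from 15.8, 18.4 and 16.8 to 4.52, 3.64 and 3.13, and to 5.28, 4.71 and 4.97. Both were higher in OC than in OL+EV, by 0.48 and 0.34 on the log2 scale (limma adjusted p = 0.00319 and 0.0186). The LIG1 call was lost without the filter (limma adjusted p = 0.0593), without OL+EV replicate 2 (0.0571) or 3 (0.099) and without OC replicate 1 (0.0649).

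RPA, the trimer that coats single-stranded DNA in replication and in repair, fell least of the roles other than origin recognition in OL+EV. Its 3 genes kept 51.4% to 55.1% of control there, with log2 fold changes of -0.79 to -0.8. RPA1 held 14.1, 18.2 and 18.5 FPKM in DMSO+EV, 9.65, 9.54 and 8.81 in OL+EV and 11.5, 12.0 and 13.2 in OC. RPA2 held 5.4, 6.7 and 6.31, then 2.68, 4.23 and 2.55, then 6.51, 6.1 and 5.97. RPA2 in OC thus overlapped control (101% of the mean, limma adjusted p = 0.929) and exceeded OL+EV by 0.81 (SE 0.14, limma adjusted p = 0.000208). RPA3 kept 52.5% and 54.9% and was not called between the treated groups (limma adjusted p = 0.79). RefSeq lists 3 RPA2 and 2 RPA3 pseudogenes.

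The fork protection genes fell in both groups. TIPIN, which pairs with TIMELESS to steady the fork, went from 4.92, 4.71 and 5.69 FPKM to 1.39, 1.41 and 1.28 in OL+EV and 2.34, 1.97 and 2.36 in OC. TIMELESS went from 7.04, 7.46 and 8.17 to 2.9, 2.65 and 2.71, and to 5.33, 5.32 and 4.83. It kept 36.4% of control in OL+EV and 68.3% in OC, and the treated groups differed by 0.71 (SE 0.092, limma adjusted p = 2.16e-05). WDHD1, which links the helicase to polymerase alpha, kept 21.4% and 31.7%, with OC above OL+EV in each library but no call (limma adjusted p = 0.0955). WDHD1 passed the filter through DMSO+EV and so had to differ from it.

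The direct comparison of OC with OL+EV placed both osimertinib groups side by side without the shared control. Only OL+EV received linsitinib and only OC overexpressed cIGF1R, and these differences cannot be told apart here. Of the 46 members 24 were called (52.2%), against 60.7% of all tested genes. Of these, 20 were higher in OC (43.5%, against 25.9% of all genes) and 4 lower (8.7%, against 34.8%). The median log2 fold change was 0.2 over the members and -0.087 over all tested genes, and it moved to 0.336 and 0.0777 with pseudocounts of 0.1 and 5 and to 0.338 without DMSO+EV replicate 1, 2 or 3, where 37 members passed the filter. The genes lower in OC were PRIM1, MCM7, POLD2 and CDT1. The libraries of OC and OL+EV lay apart for 21 members that were higher (29.6% of all tested genes) and 5 that were lower (38.4%). On the log2(FPKM + 1) scale ORC6 alone passed a log2 fold change of 1 (6.58% of all genes were higher and 4.38% lower by that much). In ratios of mean FPKM, OC to OL+EV, GINS1 (3.33), PRIM2 (2.95) and PRIM1 (0.435) also differed by more than 2-fold. Of the 8 helicase activation genes 4 were higher in OC, of the 6 helicase core genes 1 was higher and 1 lower, and of the 6 clamp and loader genes 3 were higher. DBF4, at 0.27, was the smallest change called (limma adjusted p = 0.0361) and was lost without the filter (limma adjusted p = 0.0647), with a pseudocount of 5 (0.151), without OL+EV replicate 1 (0.0846) or 2 (0.128) and without OC replicate 1, 2 or 3 (0.0984, 0.0686 and 0.0572). The share of mitochondrial transcripts differed between these groups, and after rescaling to equal totals without them 21 members were higher and 4 lower. Shares of all tested genes under that rescaling are not given.

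**Figure D4:**
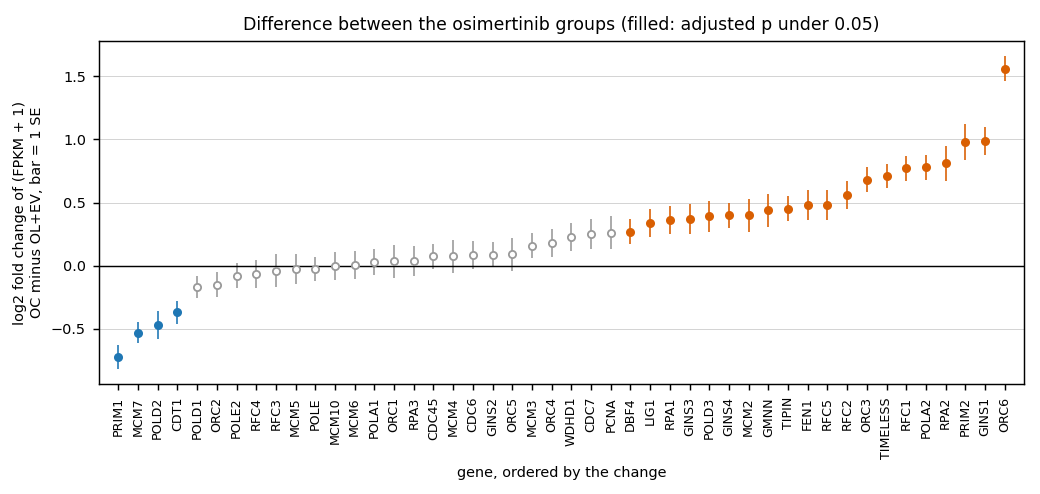
Log2 fold change of (FPKM + 1) of OC against OL+EV for the 46 members, ordered by size, with bars of 1 SE. Filled orange points mark the 20 genes higher in OC and filled blue points the 4 lower ones, from PRIM1 at -0.72 to ORC6 at 1.56.

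Ratios of partner genes lay apart between the treated groups for some pairs and overlapped for others. The ratio of ORC6 to ORC1 was 1.8 to 2.77 in DMSO+EV, 1.99 to 2.6 in OL+EV and 8.06 to 15.4 in OC. The ratio of POLA2 to POLA1 was 1.82 to 2.38, 2.75 to 3.17 and 5.19 to 5.91 in the same order. For GINS1 to GINS2 it was 1.11 to 1.29, 2.43 to 3.19 and 5.72 to 13.5, and for MCM7 to MCM6 it was 5.83 to 7.3, 16.1 to 17.5 and 9.31 to 13.4. In these 4 pairs the OC ratios lay apart from those of both other groups, and the OL+EV ratios lay apart from control in each pair but ORC6 to ORC1. The ratio of TIMELESS to TIPIN, at 1.43 to 1.58 in DMSO+EV, 1.88 to 2.12 in OL+EV and 2.04 to 2.7 in OC, overlapped between the treated groups, as did that of RFC1 to RFC3. The denominators ORC1, GINS2 and RFC3 lay under 1 FPKM in every treated library. With read depth unknown, the size of the ratios over them is uncertain there.

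**Figure D5:**
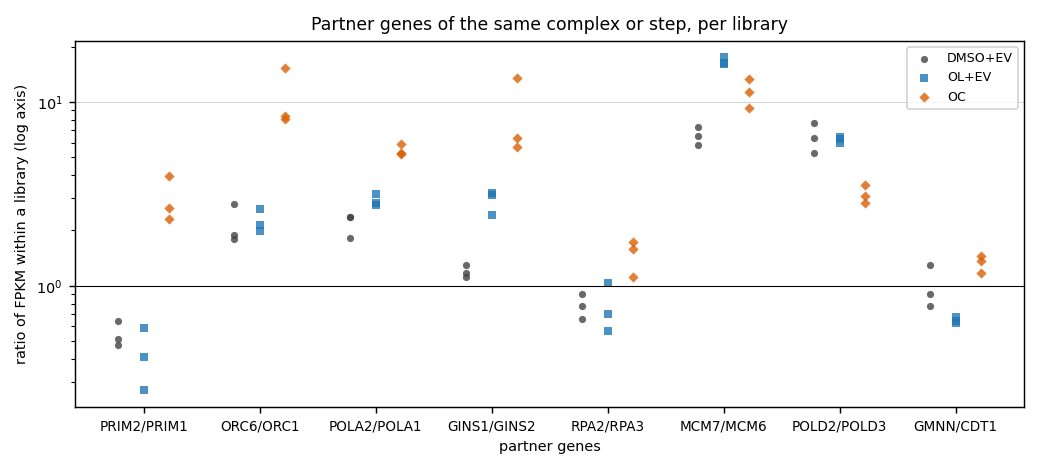
Ratio of FPKM of partner genes within each library on a log axis, for 8 pairs from the same complex or step, with grey circles for DMSO+EV, blue squares for OL+EV and orange diamonds for OC. The PRIM2 to PRIM1 ratio is above 1 (the horizontal line) in the 3 OC libraries and below it in the other 6.

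A further 35 replication genes outside the member list were described in the same way, and 34 passed the filter (ATAD5 did not). In OL+EV 26 were lower (76.5%, against 23.5% of all tested genes), 2 higher (5.88%, against 29.0%) and 6 not called. In OC 27 were lower (79.4%, against 35.8%), 3 higher (8.82%, against 33.1%) and 4 not called. The median log2 fold changes were -0.87 and -1.0. Of these genes 6 (TICRR, CLSPN, DSCC1, CHAF1B, DTL and TOP2A) passed the filter through DMSO+EV and had to differ, and of the other 28, 20 were lower in OL+EV and 21 in OC. On the log2(FPKM + 1) scale the largest falls in both comparisons were those of ASF1B, TOP2A and RECQL4. As a share of control DTL was lowest, at 1.37% in OL+EV and 2.52% in OC. ASF1B, a histone chaperone, went from 25.2 ± 1.44 FPKM to 1.0 ± 0.37 in OL+EV and 1.7 ± 0.313 in OC (SD, n = 3). TOP2A, the topoisomerase that untangles sister chromatids, went from 17.9 ± 3.39 to 0.458 ± 0.124 and 0.863 ± 0.166. RECQL4, a helicase of replication initiation, went from 22.2 ± 2.64 to 4.27 ± 0.152 and 3.0 ± 0.261. POLD4, the smallest subunit of polymerase delta, rose while POLD1, POLD2 and POLD3 fell, from 35.6 ± 1.12 FPKM to 62.8 ± 4.09 in OL+EV and 68.4 ± 13.7 in OC (log2 fold changes 0.8 and 0.91, limma adjusted p = 0.000107 and 1.82e-05). CHTF8, a subunit of an alternative clamp loader, was higher in both (0.5 and 1.16, limma adjusted p = 0.044 and 0.00019), although its OL+EV libraries overlapped those of control. CUL4B, a scaffold of ubiquitin ligases, rose in OC (0.85, limma adjusted p = 1.27e-06).

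Between the treated groups 10 of these genes were higher in OC, 7 lower and 17 not called. The 29.4% that were higher stood near the 25.9% of all tested genes, and the 20.6% that were lower below the 34.8%. DBF4B, an alternative partner of CDC7, had the largest rise (1.11, limma adjusted p = 1.46e-06), at 2.62 ± 0.131 FPKM in OC and 0.687 ± 0.209 in OL+EV (SD, n = 3). CUL4B (0.88) and TOP1, the topoisomerase that relaxes DNA ahead of the fork (0.82), followed. The largest falls were in DNA2, a nuclease of long flaps, from 3.37 ± 0.487 to 1.32 ± 0.0563 FPKM (-0.91, limma adjusted p = 6.53e-06), in CHTF18, the large subunit of the alternative clamp loader that also holds CHTF8 (-0.79, limma adjusted p = 0.000101), and in LRWD1, a binding partner of the origin recognition complex (-0.79, limma adjusted p = 2.9e-05). CHTF18 and CHTF8 thus moved in opposite directions, as CHTF8 was higher in OC by 0.66 (limma adjusted p = 0.0101).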

How the data were processed

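RNA-seq libraries of H1975 cells, 3 in each of DMSO+EV, OL+EV and OC, were grouped by their sample titles. The deposited table holds 1 value per gene symbol and library. Its unit is not named. Fractional values and unequal column totals point to FPKM, made by the authors. The submitters' processing notes name STAR, edgeR, Bowtie2 2.1.0 and the build hg38 without saying what each did. Counter, annotation and strand use are not stated. The extraction protocol in the labels names RNase R and 3 days of treatment, while the libraries are labelled as 8 days. Read depth is unknown, so no counting interval was computed.

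A pseudocount of 1 was added, and log2(FPKM + 1) entered 1 limma fit (version 3.58.1, R 4.3.3, trend and robust) over 9 libraries and the 13775 genes with at least 1 FPKM in at least 3 of them. Benjamini-Hochberg adjustment covered all tested genes, with a threshold of 0.05. The step was tested on simulated data with changes planted in a small part of the genes, all well expressed. That test does not cover members of lower level or changes as widespread as those in these data. Python 3.11.15 was used for the other steps. Promoters and gene positions came from RefSeq (GRCh38.p14). Of each role, the text gives the members with the largest and smallest change in OL+EV, the largest difference between OC and OL+EV, and members not lower in a treated group. Further genes are the 3 largest changes each way. Members, roles, lists and rules were chosen with earlier results of these data known. Alternatives were other scalings, filters, pseudocounts and fits, a replicate block, a minimum fold and leaving out each library.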

Additional observations from a re-analysis of the deposited data

How the results depend on the processing

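Depth is unknown, so values near 0 FPKM have no counting error here. Each alternative refitted the data with 1 choice changed, and a minimum log2 fold change of 1, on the log2(FPKM + 1) scale, was tried as a call rule. Over all of them but that rule, 27 to 42 members were lower in OL+EV, 26 to 40 lower and 2 higher in OC, and 14 to 23 higher and 4 lower in OC against OL+EV. The number of members tested changed with the filter. Shares of all tested genes are given for the main fit only: 23.5% lower in OL+EV, 35.8% lower and 33.1% higher in OC. In OC against OL+EV they were 25.9% higher and 34.8% lower. The filter at 5 FPKM left 29 members to test, of which 27 were called in OL+EV (27 lower) and 26 were lower in OC. Requiring a log2 fold change of 1 left 0 members higher in OC than in DMSO+EV. In OC against OL+EV it left 1 member, 1 higher and 0 lower. It kept 16, 18 and 1 further genes in the 3 comparisons. Pseudocounts of 0.1 and 5 gave member medians of -1.9 and -0.823 in OL+EV, -1.65 and -0.773 in OC, and 0.336 and 0.0777 between them. Leaving out 1 library gave medians of -1.56 to -1.32 in OL+EV, -1.5 to -1.22 in OC and 0.135 (without OC replicate 3) to 0.338 (without any 1 DMSO+EV library) between them. Leaving out a DMSO+EV library left 37 members past the filter, so fewer genes were tested. Directions turned for members that were not called: leaving out 1 library gave -0.129 to 0.0377 (without DMSO+EV replicate 3) for ORC4 in OL+EV and -0.0618 (without DMSO+EV replicate 1) to 0.0721 for RPA2 in OC, which was also -0.0163 without OC replicate 1 and -0.0143 under quantile normalization.

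The groups share replicate numbers, but same-numbered libraries did not deviate together. Their r was -0.315 to 0.0358 over 9 pairs, and 0 of 9 libraries were closest to their own number. No pairing by number was seen, but with 3 libraries a group a weak shared effect could be missed. With the replicate block 41 of 46 members were lower in OL+EV, 40 lower and 2 higher in OC, and 20 higher and 4 lower between the treated groups. The share of all tested genes under that block is not given.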
